A study of Drosophila melanogaster with 8 samples.

Results

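Cyclic di-GMP (c-di-GMP), a dinucleotide that bacteria use as a second messenger, was delivered to S2 cells that had first received scrambled double-stranded RNA (dsRNA). S2 is a macrophage-like Drosophila melanogaster line of embryonic origin. The comparison has 2 samples transfected with c-di-GMP and 2 mock-transfected samples that were given the lipid carrier without it, which are 4 of the 8 samples of the study. All 4 had been transfected with scrambled dsRNA 72 h before, and their RNA was taken 24 h after c-di-GMP or mock transfection, so the comparison describes c-di-GMP in cells that already carry dsRNA. The other 4 samples received dsRNA against DmSTING in place of the scrambled sequence, with the same 2 treatments. The labels give no dose and do not say whether replicates came from separate cultures, so a p-value here reflects only how far these samples differ from each other, possibly for technical reasons. The 4 samples were chosen by their titles. The genotype field contradicts the titles in 4 of the 8 samples, among them both samples titled as scrambled dsRNA with c-di-GMP. The Sting transcript, the target of the DmSTING dsRNA, had log2 values of 0.57 and 0.46 in these 2 samples and 0.81 and 0.83 in the 2 mock samples. All 4 values were above those of the samples titled as DmSTING dsRNA, which were -0.84 and -0.75 with c-di-GMP and -0.48 and -0.46 with mock.

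Cyclic dinucleotides are bound by STING, a membrane receptor of animal cells that in flies signals to NF-kappaB factors and induces antimicrobial and antiviral genes. The growth of a cell line rests on the making of ribosomes in the nucleolus, which needs RNA polymerase I, the small nucleolar ribonucleoproteins that modify ribosomal RNA, and many assembly factors. Growth signalling through TOR raises ribosome synthesis and holds back autophagy, lysosomal breakdown and a set of starvation genes, while the cell cycle machinery copies and divides the chromosomes.

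The values are log2 numbers, each set against the 8-sample median of its own probe set. They show differences between samples but no level, so they cannot tell whether a marker of the cell line or of another cell type was present. A change is the mean of the 2 c-di-GMP samples minus the mean of the 2 mock samples, with the standard error (SE) of the model and n = 2 per group; folds assume that the logarithm has base 2. A gene is called, and is said to have risen or fallen, where limma's p-value adjusted over 11009 genes was under 0.05. Of the 11009 genes, 1329 (12.1%) were called, with 456 higher (4.14%) and 873 lower (7.93%) after c-di-GMP. Both c-di-GMP samples lay above both mock samples for 2267 genes (20.6%) and below both for 3609 genes (32.8%), and the groups did not overlap for any of the 1329 called genes. Most changes were small. The called genes that rose had a median change of 0.43 and those that fell had a median of -0.45, and 16 rose and 29 fell by at least 2-fold. The median change of all genes was -0.04. The SD over genes of the difference between replicates was 0.233 for c-di-GMP, where 549 genes differed by more than 0.5, and 0.166 for mock, where 107 genes did. Hybridization spike-ins overlapped between the groups (bioB at 0.66 and 0.48 with c-di-GMP and 1.06 and 0.29 with mock), but lay below 0 in the 4 samples given DmSTING dsRNA. Poly-A spike-ins also overlapped, and c-di-GMP replicate 2 had the highest value of the 4 samples for each of them. The log2 difference between the 3 prime and 5 prime control probe sets did not overlap for eIF-4a and GAPDH. For eIF-4a it was 0.12 and 0.17 with c-di-GMP and 0.03 and -0.08 with mock. GAPDH went the other way, with 0.03 and 0.00 against 0.26 and 0.05 in mock, and actin overlapped. The part of these controls in the results was not tested.

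The number of calls depended on single libraries, above all on the mock samples. Leaving out a scrambled-dsRNA sample alters both the change and the shared estimate of spread. Their parts in a lost call were not tested. Without mock replicate 1, 140 genes were called higher and 286 lower, and without mock replicate 2 the counts were 85 higher and 136 lower. Without c-di-GMP replicate 1 they were 426 and 579, and without c-di-GMP replicate 2 they were 388 and 997. Without either DmSTING mock sample, which enters only through the shared estimate of spread, they were 204 and 380. A fit of the 4 scrambled-dsRNA samples alone called 62 higher and 79 lower. Leaving out each of the 8 samples in turn kept 181 calls in every fit, of which 73 were higher and 108 lower.

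**Figure D1:**
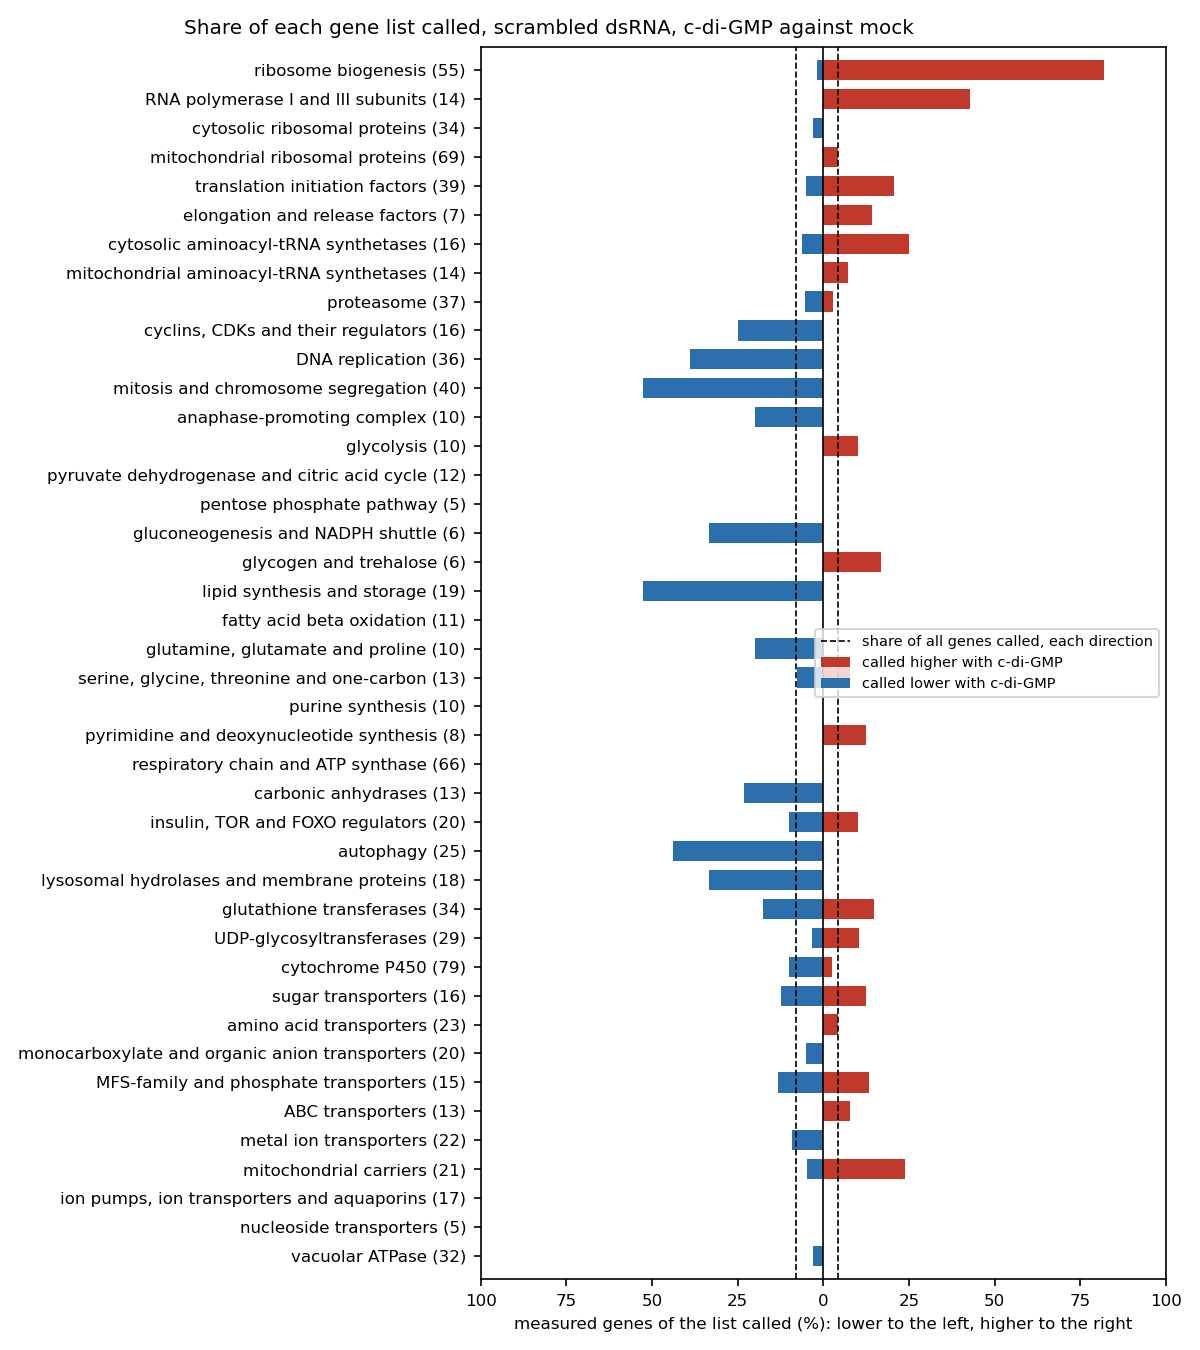
Share of the measured genes of each list that was called higher (red, to the right) or lower (blue, to the left) after c-di-GMP in cells given scrambled dsRNA, as a percent of the measured genes given in brackets; dashed lines mark the shares over all genes, 4.14% higher and 7.93% lower. Ribosome biogenesis has the longest bar to the right, and mitosis and lipid synthesis the longest bars to the left.

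Genes for making ribosomes rose together. Of 60 genes on the ribosome biogenesis list 55 were measured, and 45 of these (81.8%) rose and 1 fell, against 4.14% and 7.93% of all genes. Their median change was 0.50, and 52 of the 55 lay higher in both c-di-GMP samples than in both mock samples, against 20.6% of all genes. The list's median value was 0.22 and 0.24 in the c-di-GMP samples and -0.25 and -0.26 in the mock samples, and the median over all genes was -0.04 and -0.01 with c-di-GMP and 0.00 and 0.01 with mock. Over the fits without 1 sample, 23 to 45 of its genes were called higher, with the lowest count without mock replicate 2, and 8 were called when the 4 scrambled-dsRNA samples were fitted alone. Over the fits without 1 sample the median stayed between 0.47 and 0.52.

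Among its members, CG13185 had values of 0.32 and 0.69 with c-di-GMP and -0.32 and -0.60 with mock. It rose by 0.96 (SE 0.16, 1.95-fold, adjusted p = 0.012), the largest change on the list, and its call was lost without mock replicate 2 (adjusted p = 0.0789). The eIF6 gene, which encodes a factor needed for the 60S subunit that also keeps it from joining the small subunit too early, had 0.41 and 0.34 with c-di-GMP and -0.49 and -0.35 with mock. It rose by 0.80 (SE 0.07, 1.74-fold, adjusted p = 0.00408). The values within each group lay close together and far from those of the other group. CG8545, with 0.38 and 0.56 against -0.32 and -0.42 in mock, rose by 0.84 (SE 0.08, adjusted p = 0.00472), and CG11563 rose by 0.81 (SE 0.08, adjusted p = 0.00472). The calls of eIF6, CG8545 and CG11563 were kept in all 8 fits without 1 sample and under every other alternative tried. The member that fell was Non1, a nucleolar GTPase, with -0.27 and -0.26 in c-di-GMP samples and 0.08 and 0.21 in mock samples (change -0.41, SE 0.08, adjusted p = 0.0176); its call was lost without mock replicate 2 and without either DmSTING mock sample.

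The transcription machinery of ribosomal RNA rose with them. Of 14 measured subunits of RNA polymerases I and III, 6 rose and none fell, against 4.14% and 7.93% of all genes. Their median change was 0.23. When the list was split by symbol, after its values were seen, all 6 that rose were subunits named for RNA polymerase I, with changes from 0.45 to 0.67, and none of the 8 named for RNA polymerase III was called, with changes from -0.09 to 0.29. Polr1C, which RNA polymerases I and III share, had 0.28 and 0.27 with c-di-GMP and -0.39 and -0.41 with mock. It rose by 0.67 (SE 0.06, 1.59-fold, adjusted p = 0.00398) and was called in every alternative. Polr1H rose by 0.49 (SE 0.07), and Polr1B, the second largest subunit, and Polr1F by 0.47 each (SE 0.08 and 0.12). Those 3 calls were lost without mock replicate 2 (adjusted p up to 0.182 over the alternatives), when 1 of the 6 remained.

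Few calls fell on the proteins of the ribosome itself. Of 34 measured genes of cytosolic ribosomal proteins none was called higher and RpL34a alone was called lower, with values of -0.39 and -0.25 in c-di-GMP samples and -0.06 and 0.08 in mock samples (change -0.33, SE 0.08, adjusted p = 0.0445), a call lost in 10 of the alternatives. The list's median change was -0.07, beside -0.04 for all genes, and 21 of the 34 lay lower in both c-di-GMP samples than in both mock samples, against 32.8% of all genes. Its 52 other members had no single-gene probe set and are not covered. The list also left out symbols with a hyphen, such as RpLP0-like. With these added after the values were seen, 1 of 25 large-subunit genes rose and 1 fell, with changes from -0.33 to 0.52. None of 16 small-subunit genes was called. Mitochondrial ribosomal proteins had a median of 0.08, and 3 of 69 rose, mRpL52 by 0.32, mRpL30 by 0.30 and mRpL21 by 0.24 (SE 0.07, 0.06 and 0.06). That share of 4.35% was near the 4.14% of all genes, and the calls of mRpL52, mRpL30 and mRpL21 were lost without either mock replicate and without either DmSTING mock sample.

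Factors that carry out translation had calls in both directions. Initiation factors had 20.5% higher and 5.13% lower, against 4.14% and 7.93% of all genes. Of 39 measured initiation factors 8 rose and 2 fell, with a median change of 0.00, and 1 to 5 were called higher over the fits without 1 sample, 1 of them without either scrambled mock or either DmSTING mock sample. The 8 that rose include eIF6, which is also on the ribosome biogenesis list and, as given above, kept its call in every alternative. Its change of 0.80 was the largest of the initiation factors. After the values were seen the list was split: 3 of 6 subunits of eIF2 and eIF2B rose, and 0 of 16 subunits of eIF3 rose while 2 fell. The eIF2Bgamma gene, part of the exchange factor that reloads eIF2 with GTP, had 0.25 and 0.10 with c-di-GMP and -0.33 and -0.18 with mock. It rose by 0.43 (SE 0.08, adjusted p = 0.0218), eIF2Bdelta by 0.38 and the helicase cofactor eIF4B by 0.36. The eIF3l gene had -0.12 and -0.13 with c-di-GMP and 0.22 and 0.19 with mock (change -0.33, SE 0.06, adjusted p = 0.0186), and eIF3m had a change of -0.31. The calls of eIF2Bgamma, eIF2Bdelta, eIF4B, eIF3l and eIF3m were each lost without either mock replicate. Of 7 elongation and release factors eEF1delta alone was called, with 0.16 and 0.17 against -0.16 and -0.18 in mock (change 0.34, SE 0.06, adjusted p = 0.0189).

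Among 16 measured cytosolic aminoacyl-tRNA synthetases, the enzymes that charge tRNAs, 4 rose and 1 fell, with a median change of 0.21. LeuRS had 0.25 and 0.42 with c-di-GMP and -0.20 and -0.19 with mock and rose by 0.53 (SE 0.08, adjusted p = 0.0104). ValRS rose by 0.42, GluProRS by 0.30 and AsnRS by 0.28. TyrRS went the other way, with -0.30 and -0.25 against 0.08 and 0.19 in mock (change -0.41, SE 0.07, adjusted p = 0.0134). None of the 4 rises was called without either mock replicate, and the fall of TyrRS was lost without mock replicate 2. Of 14 mitochondrial synthetases AspRS-m alone was called, with a change of 0.30 (SE 0.07, adjusted p = 0.0319).

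Proteasome genes stayed near the middle, with 1 of 37 higher, 2 lower and a median of -0.07. All 3 called members are paralogues named by an R for related, in flies mostly known from testis, and not the standard subunits. Rpt3R, with -0.27 and -0.60 against 0.50 and 0.39 in mock, fell by 0.88 in log2 units (SE 0.11, 1.84-fold, adjusted p = 0.00589), and its call was lost only when the 4 scrambled-dsRNA samples were fitted alone. Rpt4R had a change of -0.44 and Prosbeta2R1 a change of 0.30, with their calls lost in several alternatives.

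**Figure D2:**
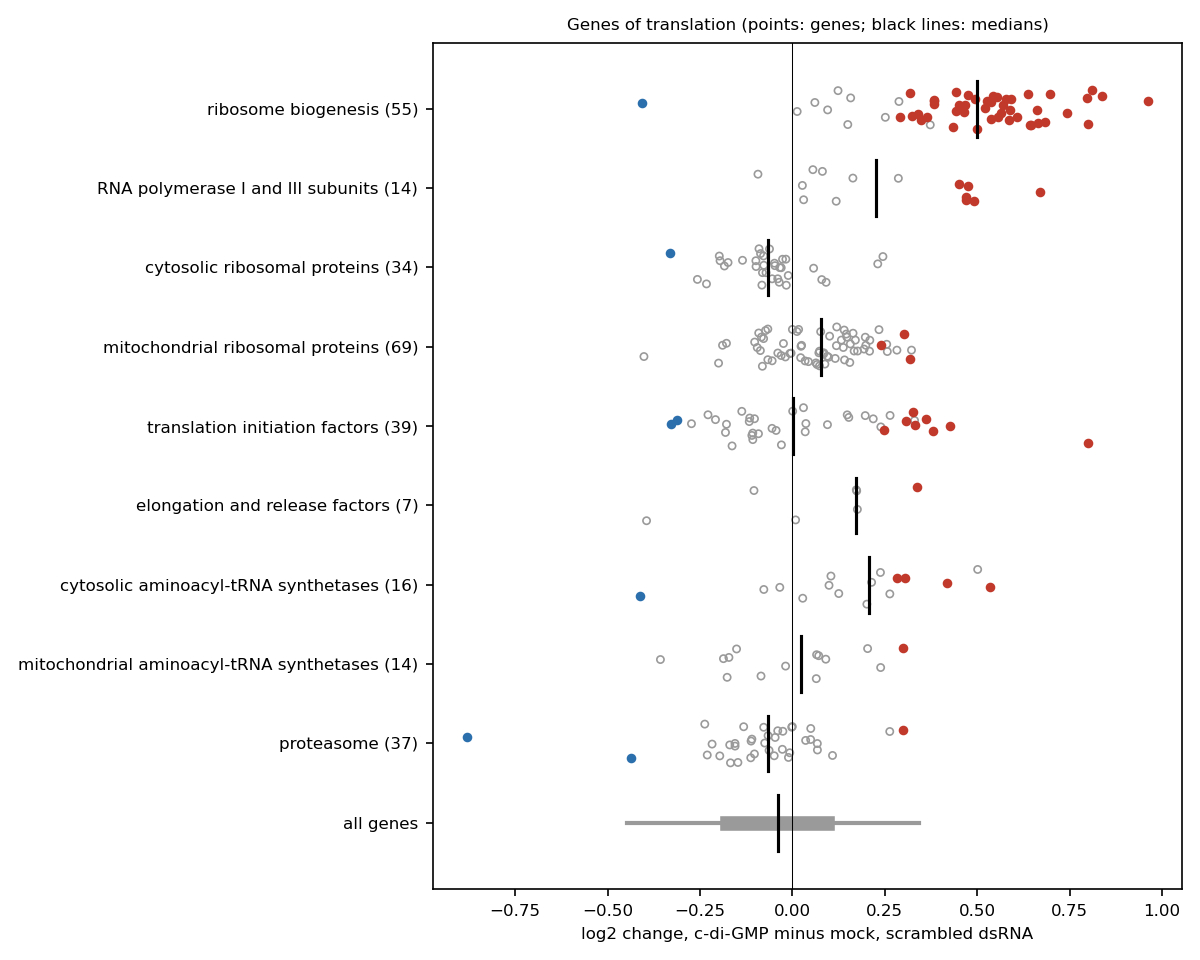
Log2 change, c-di-GMP minus mock in cells given scrambled dsRNA, of each measured gene on the translation lists (1 point a gene; filled red, called higher; filled blue, called lower; open, not called; black line, median). The grey bar of all genes spans the middle 90% (thin) and 50% (thick); 54 of 55 ribosome biogenesis genes lie to the right of 0, and cytosolic ribosomal proteins centre on -0.07.

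Cell cycle genes were lower after c-di-GMP. Over the 4 cell cycle lists, 102 genes were measured, of which 41 fell and none was called higher, against 7.93% and 4.14% of all genes, with a median change of -0.26. In bulk RNA, fewer cycling cells and less of these transcripts per cell cannot be told apart. These calls leaned on the mock libraries more than the ribosome calls did: of 40 measured mitosis genes 21 fell, but 1 was called lower without mock replicate 2, 5 without mock replicate 1 9 without either DmSTING mock sample, 13 without c-di-GMP replicate 2 and 1 when the 4 scrambled-dsRNA samples were fitted alone. For DNA replication, 14 of 36 fell, with 2 called without mock replicate 2, 3 without mock replicate 1, 4 without either DmSTING mock sample and 7 without c-di-GMP replicate 2. Over all 102 genes, 4 were called lower without mock replicate 2 and 10 without mock replicate 1. After quantile normalization 12 mitosis and 7 replication genes were called lower. The list medians moved little over the fits without 1 sample, from -0.35 to -0.29 for mitosis and from -0.29 to -0.22 for replication.

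Among the regulators, Cdk2, the kinase that with Cyclin E starts S phase, had -0.26 and -0.44 in c-di-GMP samples and 0.28 and 0.28 in mock samples. It fell by 0.63 in log2 units (SE 0.08, 1.55-fold, adjusted p = 0.00605) and was called in each fit without 1 sample. Cks30A, a small subunit of cyclin-dependent kinases, had -0.20 and -0.28 against 0.20 and 0.32 in mock (change -0.50, SE 0.07, adjusted p = 0.00941). Rbf2, a retinoblastoma family repressor, had a change of -0.41, and CycB3, a mitotic cyclin, a change of -0.33. These were the 4 of 16 cyclins, CDKs and regulators that fell. The calls of Cks30A, Rbf2 and CycB3 were lost without mock replicate 2, and that of Rbf2 was lost in 12 of the 13 alternatives.

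Of the replication genes, Orc5, a subunit of the origin recognition complex that marks replication starts, had -0.47 and -0.44 with c-di-GMP and 0.24 and 0.14 with mock. It fell by 0.64 (SE 0.07, 1.56-fold, adjusted p = 0.00472) and was called in every alternative. Orc1 had -0.37 and -0.31 against 0.15 and 0.20 in mock and fell by 0.51 (SE 0.06, adjusted p = 0.00602). Both groups of values were narrow and well apart. Mcm2, of the replicative helicase, had -0.22 and -0.24 against 0.22 and 0.21 in mock (change -0.44, SE 0.06, adjusted p = 0.00814), and RfC3, of the clamp loader, had a change of -0.44 (SE 0.09). The calls of Mcm2 and RfC3 were lost without mock replicate 2.

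The mitotic genes with the largest changes build centrioles and spindles. Sas-6, which forms the centriole cartwheel, had -0.40 and -0.38 with c-di-GMP and 0.20 and 0.31 with mock. It fell by 0.65 (SE 0.08, 1.57-fold, adjusted p = 0.0065) and was lost without mock replicate 2 (adjusted p = 0.0535). Sas-4, another centriole assembly protein, had a change of -0.60 (SE 0.13), the kinesin-5 motor Klp61F a change of -0.56 (SE 0.10) and the kinesin-14 motor ncd a change of -0.54 (SE 0.08). In groups formed after the values were seen, all 5 measured kinetochore genes fell, with changes from -0.43 to -0.36. So did 3 of 4 origin recognition subunits, 3 of 5 centriole and centrosome genes, 3 of 4 kinesins and 2 of 5 MCM subunits. The spindle checkpoint had 2 of 6 genes lower, with a highest change of 0.18. The chromosomal passenger complex had 2 of 4 lower, and condensin and cohesin 2 of 7. Of all genes 7.93% fell. Without mock replicate 2 the calls of Sas-4, Klp61F and ncd were lost as well. Of 10 anaphase-promoting complex genes APC4 (change -0.48, SE 0.11) and mr (change -0.30, SE 0.07) fell, and neither was called without either mock replicate. Cep135, a centriole protein outside the lists and named for its small p, had -0.44 and -0.50 with c-di-GMP and 0.47 and 0.48 with mock. It fell by 0.94 (SE 0.07, 1.92-fold, adjusted p = 0.00219) and was called in every alternative.

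**Figure D3:**
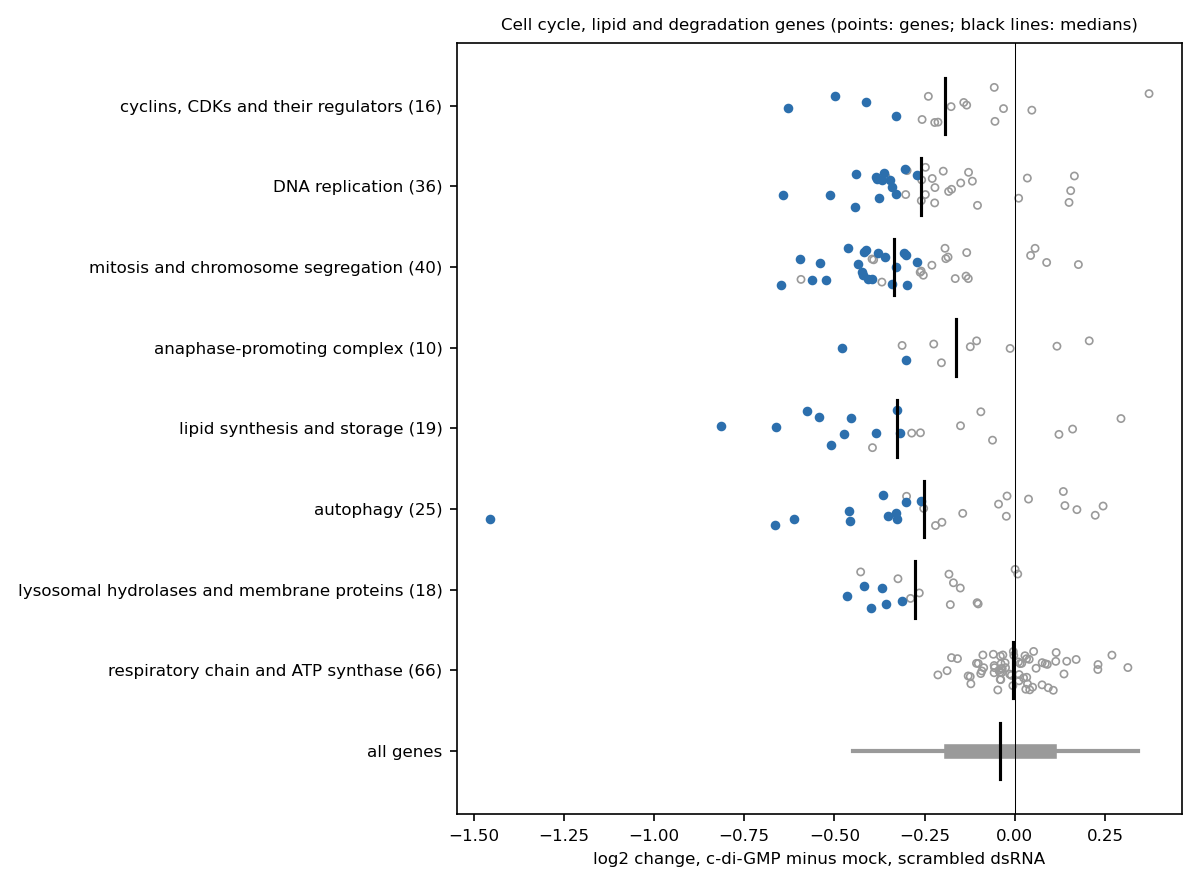
Log2 change, c-di-GMP minus mock in cells given scrambled dsRNA, of each measured gene of the cell cycle, lipid, autophagy, lysosome and respiratory chain lists (1 point a gene; filled blue, called lower; open, not called; black line, median). The grey bar of all genes spans the middle 90% (thin) and 50% (thick); the mitosis list centres on -0.34 and the lipid list on -0.33, and none of the 66 respiratory chain genes was called.

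Tret1-1, Treh and Hex-A, which act in sugar uptake and use, rose, and the lists of central carbon metabolism had few other calls. Tret1-1, a facilitative transporter of trehalose, the blood sugar of insects, had 0.76 and 0.93 in c-di-GMP samples and -0.75 and -0.89 in mock samples. It rose by 1.67 (SE 0.09, 3.17-fold, adjusted p = 0.00219). Treh, the trehalase that splits trehalose into glucose, had 0.30 and 0.36 against -0.43 and -0.29 in mock and rose by 0.69 (SE 0.07, 1.61-fold, adjusted p = 0.00472). Hex-A, a hexokinase that phosphorylates glucose, had 0.52 and 0.56 against -0.35 and -0.43 in mock. It rose by 0.93 (SE 0.08, 1.91-fold, adjusted p = 0.00382). The calls of Tret1-1, Treh and Hex-A were kept in every alternative. Hex-A was the only call among 10 measured glycolysis genes, and Treh the only call among 6 genes of glycogen and trehalose metabolism.

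No gene was called among 12 of pyruvate dehydrogenase and the citric acid cycle, 5 of the pentose phosphate pathway, 66 of the respiratory chain and ATP synthase, 11 of fatty acid beta oxidation and 10 of purine synthesis. The median changes of these lists lay between -0.17 and 0.07. PCB, pyruvate carboxylase, came nearest in the citric acid list with a change of -0.36 (SE 0.11, adjusted p = 0.0747). SdhC, of succinate dehydrogenase, had -0.21 (SE 0.08, adjusted p = 0.139). Taldo, transaldolase, had 0.23 (SE 0.07, adjusted p = 0.0634), Rpi, ribose-5-phosphate isomerase, had 0.09 (SE 0.06, adjusted p = 0.433), and in the purine list Adss had 0.25 (SE 0.07, adjusted p = 0.0584) and bur had 0.31 (SE 0.09, adjusted p = 0.0613). Arc42, an acyl-CoA dehydrogenase, had -0.22 (SE 0.07, adjusted p = 0.0897), Mtpbeta had -0.29 (SE 0.12, adjusted p = 0.164), and the respiratory chain genes of smallest p, ND-B22 and UQCR-14, had -0.21 and -0.18 (SE 0.07 each). Of 8 genes of pyrimidine and deoxynucleotide synthesis r-l, UMP synthase, rose by 0.38 (SE 0.07, adjusted p = 0.0182), a call lost without either mock replicate.

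A gluconeogenic enzyme and a source of NADPH fell, which is 33.3% of the measured genes of their list, against 7.93% of all genes. Pepck1, phosphoenolpyruvate carboxykinase of gluconeogenesis, had -0.65 and -0.30 with c-di-GMP and 0.12 and 0.32 with mock and fell by 0.70 (SE 0.13, 1.62-fold, adjusted p = 0.0204). Men-b, a malic enzyme, had -0.23 and -0.15 against 0.15 and 0.21 in mock (change -0.37, SE 0.07, adjusted p = 0.0166). These were 2 of 6 measured genes of that list, and both calls were lost without either mock replicate (adjusted p up to 0.115 and 0.0969).

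Amino acid metabolism had single genes with large changes. On the list of glutamine, glutamate and proline 20.0% of the measured genes fell, against 7.93% of all genes. Gs1, a glutamine synthetase, had -0.71 and -1.06 with c-di-GMP and 0.58 and 0.64 with mock. It fell by 1.5 (SE 0.21, 2.82-fold, adjusted p = 0.0078), and the call was lost without mock replicate 2 (adjusted p = 0.0588). Got2, an aspartate aminotransferase, had a change of -0.35 (SE 0.08, adjusted p = 0.0367), and was not called without either mock replicate; these were 2 of 10 measured genes of glutamine, glutamate and proline. Tdh, threonine dehydrogenase, had 0.35 and 0.65 against -0.40 and -0.38 in mock and rose by 0.89 (SE 0.10, 1.85-fold, adjusted p = 0.00492). CG11899, a predicted phosphoserine aminotransferase of serine synthesis, had -0.61 and -0.53 against 0.08 and 0.17 in mock and fell by 0.69 (SE 0.07, 1.62-fold, adjusted p = 0.00472). Both were called in every alternative, and they were the only calls among 13 genes of serine, glycine, threonine and folate metabolism.

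Lipid synthesis and storage genes were lower, with 52.6% of the measured genes called lower against 7.93% of all genes. Of 19 measured genes 10 fell and none was called higher, with a median change of -0.33, and 2 to 9 were called lower over the fits without 1 sample, with 2 without mock replicate 2, 4 without mock replicate 1 and 5 without c-di-GMP replicate 1 or either DmSTING mock sample. Quantile normalization left 5. The list's median value was lower in both c-di-GMP samples than in both mock samples. Lsd-1, the perilipin that coats lipid droplets, had -0.34 and -0.31 with c-di-GMP and 0.40 and 0.57 with mock and fell by 0.82 (SE 0.11, 1.76-fold, adjusted p = 0.0078). AcCoAS, the acetyl-CoA synthetase, had -0.41 and -0.44 against 0.21 and 0.28 in mock and fell by 0.66 (SE 0.06, 1.58-fold, adjusted p = 0.0043), in every alternative. FASN1, a fatty acid synthase, had -0.33 and -0.26 against 0.27 and 0.23 in mock and fell by 0.54 (SE 0.07, adjusted p = 0.00551). The lipase bmm, which breaks stored fat down, moved the same way as the synthetic enzymes, with -0.18 and -0.42 against 0.18 and 0.37 in mock (change -0.58, SE 0.10, adjusted p = 0.0158). Without mock replicate 2 the calls of Lsd-1 (adjusted p = 0.0584) and bmm were lost.

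Autophagy and lysosome genes were lower as well, with 44.0% and 33.3% of them called lower, in that order, against 7.93% of all genes. Of 25 autophagy genes 11 fell and none was called higher, with a median of -0.25. BNIP3, a mitophagy receptor, had -0.62 and -0.98 with c-di-GMP and 0.64 and 0.67 with mock and fell by 1.45 (SE 0.13, 2.74-fold, adjusted p = 0.00382), in every alternative. Atg17, of the Atg1 kinase complex, had -0.67 and -0.65 against 0.03 and -0.03 in mock (change -0.66, SE 0.10). Atg9, a membrane scramblase of the forming autophagosome, had -0.49 and -0.53 against 0.05 and 0.15 in mock (change -0.61, SE 0.07, adjusted p = 0.00472). Atg18a, a phosphoinositide-binding protein, had a change of -0.46 (SE 0.07). The call of Atg9 was kept in each fit without 1 sample, those of Atg17 and Atg18a were lost without mock replicate 2, and 2 to 9 genes of the list were called lower over those fits, with 2 without mock replicate 2, 4 without mock replicate 1, 5 without c-di-GMP replicate 1 or either DmSTING mock sample and 7 without either DmSTING c-di-GMP sample. Quantile normalization left 5.

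Of 18 lysosomal hydrolases and membrane proteins 6 fell, with a median of -0.28, and none was called without either mock replicate, 2 without either DmSTING mock sample and 3 without c-di-GMP replicate 2 or after quantile normalization. CtsB, cathepsin B, had -0.31 and -0.45 with c-di-GMP and 0.08 and 0.10 with mock (change -0.47, SE 0.08, adjusted p = 0.0161). The sterol-binding proteins Npc2b and Npc2a had changes of -0.42 (SE 0.07) and -0.40 (SE 0.10), and Ppt1, a thioesterase, had -0.37 (SE 0.08). Vha100-1 was the only call among 32 subunits of the vacuolar ATPase, the proton pump that acidifies lysosomes, with a change of -0.34 (SE 0.09, adjusted p = 0.0467), and it was lost without either mock replicate.

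Regulators of insulin and TOR signalling had calls in both directions. Of 20 measured, 2 rose and 2 fell (10.0% each), against 4.14% and 7.93% of all genes. REPTOR-BP, the partner of the transcription factor REPTOR that turns on genes when TOR is low, had -0.51 and -0.76 with c-di-GMP and 0.75 and 0.61 with mock. It fell by 1.31 (SE 0.10, 2.49-fold, adjusted p = 0.00296), in every alternative. Sesn, sestrin, a TOR inhibitor, had -0.18 and -0.30 against 0.06 and 0.08 in mock (change -0.31, SE 0.07, adjusted p = 0.0385). In contrast scyl, also known to inhibit TOR, had 0.24 and 0.36 against -0.24 and -0.52 in mock and rose by 0.68 (SE 0.10, 1.61-fold, adjusted p = 0.00924). ImpL2, a secreted protein that binds insulin-like peptides, had 0.15 and 0.15 against -0.34 and -0.25 in mock and rose by 0.45 (SE 0.07, adjusted p = 0.00894). Leaving out mock replicate 1 ended the calls of ImpL2 and Sesn, and leaving out mock replicate 2 that of Sesn.

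**Figure D4:**
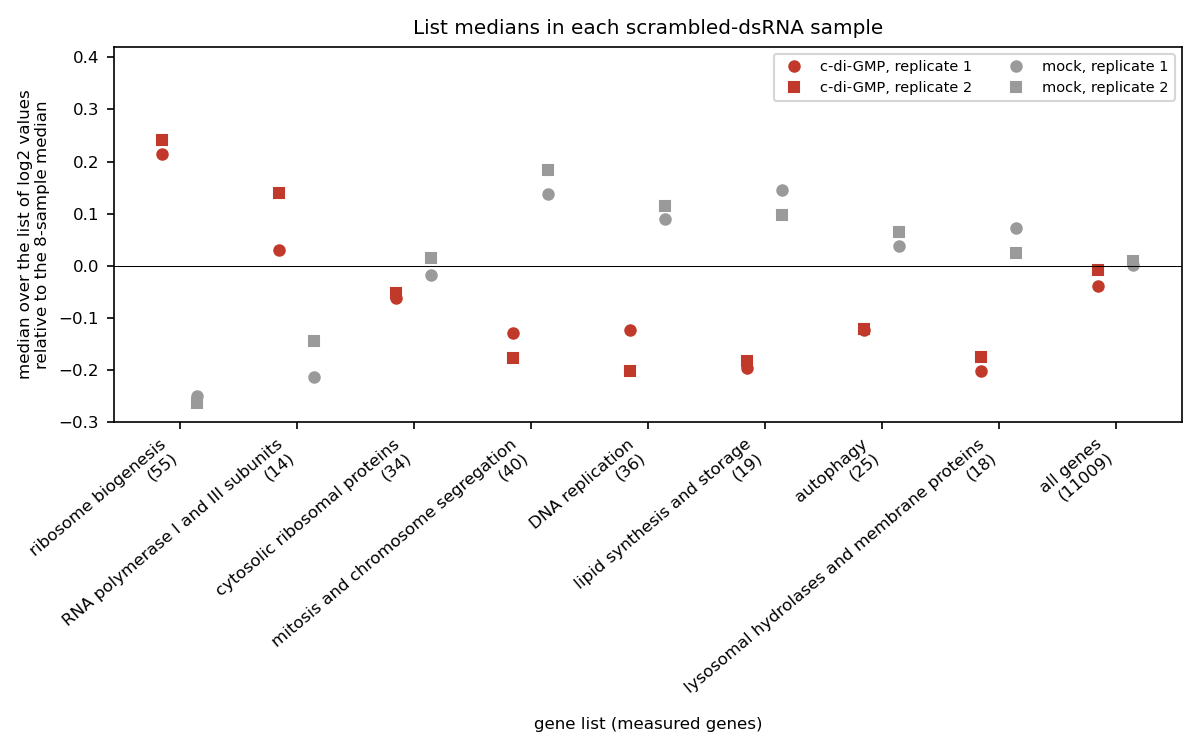
Median over each list of the log2 values in each of the 4 scrambled-dsRNA samples (red, c-di-GMP; grey, mock; circles, replicate 1; squares, replicate 2), with the number of measured genes in brackets. For ribosome biogenesis both c-di-GMP samples (0.22 and 0.24) lie above both mock samples (-0.25 and -0.26), and for mitosis, replication, lipid, autophagy and lysosome lists both lie below.

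Carbonic anhydrases, which interconvert carbon dioxide and bicarbonate, held some of the largest falls. CAH1 had -0.91 and -0.84 with c-di-GMP and 0.68 and 1.14 with mock and fell by 1.79 (SE 0.14, 3.45-fold, adjusted p = 0.00296), in every alternative. CAH2 had -0.92 and -0.37 against 0.37 and 0.80 in mock (change -1.23, SE 0.26, adjusted p = 0.0277), and CAH7 had a change of -0.35 (SE 0.09). These were 3 of 13 measured genes named CAH with a number (23.1%, against 7.93% of all genes). With CAHbeta, added after the values were seen, 4 of 14 were called lower. The calls of CAH2 and CAH7 were lost without either mock replicate.

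Detoxification families had calls in both directions. Of 34 glutathione transferases 5 rose (14.7%) and 6 fell (17.6%), and of 29 UDP-glycosyltransferases 3 rose (10.3%) and 1 fell (3.45%). Of 79 cytochrome P450 genes 2 rose (2.53%) and 8 fell (10.1%). Over all genes 4.14% rose and 7.93% fell, and the P450 shares lay near these. Over the fits without 1 sample, 1 to 5 glutathione transferases were called higher and 1 to 4 lower, with 1 in each direction without any 1 of the 4 mock samples of either dsRNA. For the UDP-glycosyltransferases the counts were 1 to 4 higher and 0 to 4 lower. For the P450 genes they were 0 to 4 higher and 1 to 10 lower, with the lowest counts (0 and 1) without mock replicate 2 and the highest without c-di-GMP replicate 2. Ugt302K1, a glycosyltransferase that conjugates small molecules, had 0.43 and 0.58 with c-di-GMP and -0.81 and -0.58 with mock and rose by 1.2 (SE 0.11, 2.29-fold, adjusted p = 0.00398). Ugt35C1 rose by 0.77 and Ugt37D1 by 0.69 (SE 0.13 and 0.14), and Ugt35A1 had a change of -0.46 (SE 0.06). GstD2, a delta class transferase, had 0.27 and 0.46 against -0.50 and -0.45 in mock and rose by 0.84 (SE 0.09, 1.79-fold, adjusted p = 0.00483). In the same class GstD5 had a change of 0.31, GstD7 of -0.53 and GstD8 of -0.48, so close relatives went apart. GstE14 and GstE9 had changes of 0.41 and 0.31, and GstT4 and GstE4 of -0.54 and -0.49. The calls of Ugt302K1 and GstD2 were kept in every alternative, and each other transferase named here lost its call without a mock replicate.

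Cyp12a4, a mitochondrial P450, had -0.61 and -0.47 in c-di-GMP samples and 0.39 and 0.30 in mock samples and fell by 0.89 (SE 0.08, 1.85-fold, adjusted p = 0.00382), in every alternative. Cyp12e1 of the same family had a change of -0.59 (SE 0.09), Cyp6v1 of -0.65 (SE 0.14) and Cyp6u1 of -0.52 (SE 0.07). A look at the Cyp12 family, made after the values were seen, found 4 of 6 members lower. Cyp4p1 and Cyp310a1 were the P450 genes that rose, by 0.49 and 0.32 (SE 0.09 and 0.08). The calls of Cyp12e1, Cyp6v1, Cyp6u1, Cyp4p1 and Cyp310a1 were lost without mock replicate 2.

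Transporters had few calls apart from Tret1-1 and the mitochondrial carriers. Of 184 measured genes on the transport lists 11 rose (5.98%) and 9 fell (4.89%), against 4.14% and 7.93% of all genes. Of 21 measured mitochondrial carriers 5 rose (23.8%) and 1 fell, with 1 to 3 called higher over the fits without 1 sample, the lowest without mock replicate 2. SCaMC, a calcium-regulated carrier of ATP-Mg and phosphate, had 0.37 and 0.41 with c-di-GMP and -0.40 and -0.49 with mock and rose by 0.84 (SE 0.07, 1.79-fold, adjusted p = 0.00296), in every alternative. Tpc1, a thiamine pyrophosphate carrier, had 0.37 and 0.44 against -0.12 and -0.16 in mock and rose by 0.54 (SE 0.08, adjusted p = 0.00814). MME1, a magnesium exporter, rose by 0.48 (SE 0.11) and Ant2, an ADP/ATP exchanger, by 0.39 (SE 0.08). Ucp4A, an uncoupling protein, had -0.64 and -0.52 against 0.03 and 0.23 in mock and fell by 0.71 (SE 0.09, 1.63-fold, adjusted p = 0.00591). Without mock replicate 2 the calls of Tpc1, MME1 and Ant2 were lost.

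At the plasma membrane, 2 of 16 sugar transporters rose and 2 fell (12.5% each), against 4.14% and 7.93% of all genes. Tret1-2, the relative of Tret1-1, had 0.37 and 0.25 with c-di-GMP and -0.18 and -0.11 with mock (change 0.46, SE 0.08, adjusted p = 0.0131), while CG1213 and sut1 had changes of -0.47 and -0.38 (SE 0.10 and 0.09). MFS3 had 0.42 and 0.51 against -0.32 and -0.10 in mock and rose by 0.67 (SE 0.09, 1.59-fold, adjusted p = 0.00706). Indy, a citrate and succinate transporter, rose by 0.38 (SE 0.07, adjusted p = 0.0172). The glutamate transporter dmGlut had -0.39 and -0.30 against 0.32 and 0.30 in mock and fell by 0.65 (SE 0.08, 1.57-fold, adjusted p = 0.00551), in every alternative, and MFS15 had a change of -0.44 (SE 0.07). With MFS3 and Indy these were the calls among 15 genes of the MFS and phosphate list. The calls of Tret1-2, CG1213, sut1, Indy and MFS15 were lost without either mock replicate.

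Of 23 amino acid transporters JhI-21 alone was called, with a change of 0.29 (SE 0.07, adjusted p = 0.0397), and of 13 ABC transporters MRP, a drug and conjugate pump, with 0.45 (SE 0.09, adjusted p = 0.0215). CG8389, on the monocarboxylate and organic anion list, was the only call of 20 and had a change of -0.57 (SE 0.09, adjusted p = 0.0115). The zinc transporters ZnT77C, with -0.34 and -0.33 against 0.28 and 0.18 in mock (change -0.57, SE 0.08, adjusted p = 0.00699), and Zip88E, with a change of -0.54 (SE 0.08), were the 2 calls of 22 metal ion transporters. No gene was called of 17 ion pumps, ion transporters and aquaporins, where bib had a change of -0.69 (SE 0.20, adjusted p = 0.0659) and ClC-b of -0.19 (SE 0.07, adjusted p = 0.135). None was called of 5 nucleoside transporters either, where CNT2 and Ent3 had overlapping groups. The calls of JhI-21, MRP, CG8389 and Zip88E were lost without mock replicate 2, and that of ZnT77C was kept in each fit without 1 sample.

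**Figure D5:**
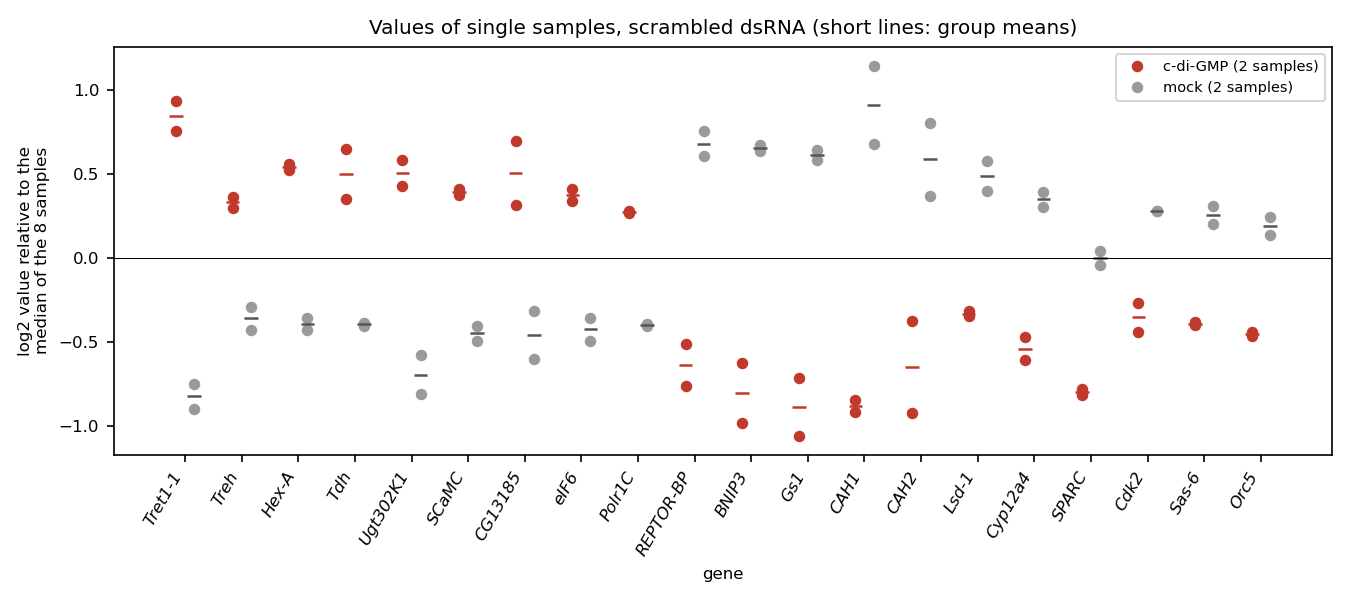
Log2 values of single samples, relative to the median of the 8 samples, for 20 genes named in the text (red, 2 c-di-GMP samples; grey, 2 mock samples; short lines, group means), all given scrambled dsRNA. All 20 were picked from the 1329 called genes, none of which had overlapping groups, so the gaps seen here follow from that choice. Tret1-1 lies at 0.76 and 0.93 with c-di-GMP and at -0.75 and -0.89 with mock.

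Immune genes were among those with the highest changes. Mtk, an antimicrobial peptide, had 2.37 and 2.24 with c-di-GMP and -0.01 and -0.22 with mock, Tsf1, a transferrin, had 1.68 and 1.49 against -0.15 and -0.10 in mock, and Listericin had 1.11 and 1.17 against -0.20 and -0.10 in mock. Nazo, an antiviral gene known to lie downstream of Sting in flies, had 0.72 and 0.95 against -0.08 and -0.30 in mock. Of 6 measured antimicrobial peptides, whose median change was 1.45, Mtk alone was called. Without either DmSTING c-di-GMP sample all 6 were called higher, with the 4 scrambled-dsRNA samples alone 5 were, and without either mock replicate none was. CG8519 had 2.31 and 2.51 with c-di-GMP, and CG32373 had 2.10 and 2.28, and both lay at 0.01 or below in each mock sample. CG34165, CG34227 and CG43109 had 1.43 or more in each c-di-GMP sample and 0.08 or less in each mock sample. In all 9 of these genes the c-di-GMP samples stood far above mock, and all 9 calls were lost without either mock replicate (adjusted p up to 0.187).

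Most of the genes of smallest p fell. The homeodomain gene btn had -1.52 and -1.41 with c-di-GMP and 0.75 and 1.25 with mock and fell by 2.46 (SE 0.15, 5.51-fold, adjusted p = 0.00219). CG6770 had -1.01 and -1.29 against 1.22 and 0.81 in mock, and Drat had -1.07 and -0.78 against 0.81 and 0.78 in mock. The ubiquitin ligase dnr1, a known inhibitor of the Imd pathway caspase Dredd, had -0.77 and -0.60 against 0.78 and 0.60 in mock and fell by 1.37 (SE 0.09, 2.59-fold, adjusted p = 0.00219). CG7083 had -0.60 and -0.53 against 0.46 and 0.45 in mock. In the other direction CG3348 had 0.51 and 0.66 against -0.53 and -0.64 in mock, and bor, an AAA ATPase, had 0.45 and 0.47 against -0.40 and -0.40 in mock (change 0.86, SE 0.06, adjusted p = 0.00219). The calls of btn, CG6770, Drat, dnr1, CG7083, CG3348 and bor were kept in every alternative. So were those of mlt and CG10581, which fell by 1.41 and 1.36, and of CG12520, which rose by 1.34.

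The germline gene bam and the transcription factor esg also fell, by 1.37 (SE 0.24) and 1.69 (SE 0.41), with esg at -1.69 and -0.65 with c-di-GMP and 0.91 and 0.12 with mock. CG11658 fell by 1.28 (SE 0.20) and the Notch target E(spl)m3-HLH by 1.32 (SE 0.23), while CG9815 rose by 1.12 (SE 0.23) and CG18746 by 1.02 (SE 0.18). The calls of bam, esg, CG11658, CG9815 and CG18746 were lost without either mock replicate.

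Of 15 heat shock genes on the list 6 were measured, and 4 of these (66.7%) fell with c-di-GMP, against 7.93% of all genes. After quantile normalization 2 were called lower. Hsp68, an inducible Hsp70 relative, had -0.44 and -0.40 with c-di-GMP and 0.44 and 0.24 with mock and fell by 0.76 (SE 0.10, 1.69-fold, adjusted p = 0.00672), in every alternative. The small heat shock genes Hsp27 and Hsp26 had changes of -0.69 (SE 0.15) and -0.68 (SE 0.16), and the cochaperone stv had -0.64 (SE 0.11). In Hsp27 the mock samples stood at 0.62 and 0.12 and in Hsp26 at 0.65 and 0.20, with mock replicate 1 the higher. Without it the calls of Hsp27, Hsp26 and stv were lost. Those of Hsp27 and Hsp26 were also lost without either c-di-GMP replicate, without either DmSTING mock sample and after quantile normalization. The call of stv was also lost without mock replicate 2. What the high mock value had to do with these losses was not tested.

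Basement membrane and blood cell genes were measured because S2 cells resemble plasmatocytes, the phagocytes of the fly. SPARC, a collagen-binding protein, had -0.78 and -0.81 with c-di-GMP and -0.04 and 0.04 with mock and fell by 0.79 (SE 0.10, 1.73-fold, adjusted p = 0.00645). The collagen IV genes vkg and Col4a1 had changes of -0.74 (SE 0.14) and -0.61 (SE 0.09), and Ndg, nidogen, rose by 0.34 (SE 0.09, adjusted p = 0.0496). Of 12 measured basement membrane genes these were the only calls, 3 lower and 1 higher. The list's median change was -0.05, near the -0.04 of all genes. Of 9 plasmatocyte markers, whose median change was -0.03, 3 fell (33.3%, against 7.93% of all genes). They were the phagocytic receptor NimC1 (change -0.64, SE 0.14) and again vkg and Col4a1, which are on both lists. Of 5 lamellocyte markers PPO3 (change -0.57, SE 0.08) and mys (change -0.35, SE 0.09) fell. The calls of SPARC, vkg, Col4a1, Ndg, NimC1, PPO3 and mys were lost without mock replicate 2. Of the 13 alternatives, mys lost its call in all 13 and Ndg in 11, while SPARC lost it in 1. None was called of 3 crystal cell, 4 fat body, 5 neuronal and 2 muscle markers. Of 127 chemoreceptor genes, mostly silent outside sensory neurons, 2 rose and 2 fell, under the shares of all genes (0 to 6 and 0 to 5 over the fits without 1 sample), and Gr94a, Gr92a, Gr59e and Ir76a had changes of 0.73, 0.43, -0.49 and -0.41.

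The same contrast was read in the 4 samples given DmSTING dsRNA, where c-di-GMP was likewise compared with mock. Of the 1329 genes called with scrambled dsRNA, 1288 (96.9%) had a change of the same sign there, against 71.9% of all genes. Of the 456 that rose, 279 also rose there, and of the 873 that fell, 378 also fell. Of all genes 3.27% and 4.17% were called in those directions with DmSTING dsRNA. Both contrasts use the same estimate of spread for each gene, so the 2 sets of calls are not independent. Ribosome biogenesis had a median change of 0.50 with scrambled and 0.58 with DmSTING dsRNA. Tret1-1 had changes of 1.67 and 1.47, REPTOR-BP of -1.31 and -1.40 and BNIP3 of -1.45 and -1.52, in that order. For other genes the 2 changes stood further apart: Mtk had 2.42 with scrambled and 0.81 with DmSTING dsRNA, SPARC -0.79 and -0.21, Col4a1 -0.61 and -0.09, and Orc5 -0.64 and -0.23. In Mtk the samples given DmSTING dsRNA stood apart from each other, at -0.10 and 1.5 with c-di-GMP and 0.01 and -0.22 with mock. The same c-di-GMP sample, replicate 2, was the higher in CG8519 (-0.25 and 1.61), CG32373 (-0.23 and 1.47) and Tsf1 (-0.33 and 0.90), so for these genes the mean change with DmSTING dsRNA and the spread used in each test rest on a discordant pair. The difference between the 2 responses was tested for each gene by limma and none of the 11009 passed (0%), SPARC, Col4a1, Orc5 and Mtk included; 540 had an unadjusted p under 0.05, and 12 were called without DmSTING c-di-GMP replicate 2. The median absolute change of the called genes was 0.45 with scrambled dsRNA. With DmSTING dsRNA their median change, counted as positive where it had the sign of the scrambled change, was 0.36. The genes were called on the scrambled samples.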

How the data were processed

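The values are log2 expression numbers deposited by the authors for 16718 probe sets in 8 samples. RNA was labelled with biotin by an Affymetrix kit, per the labels' protocols. The sources used here do not give the summarization, scaling, filters, software or base of the logarithm; base 2 was assumed, and a higher value was read as more transcript. Every probe set had a median within 1e-06 of 0 over the 8 samples. The number of arrays limits the precision. Centring removes any measure of signal over background.

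Gene names came from the platform annotation, checked against a RefSeq gene table. Those with 1 gene symbol (12339) were averaged to 11009 genes, 920 of which had more than 1 probe set; 367 probe sets naming several genes, 3888 naming none and 124 controls were left out. In R 4.3.3, limma 3.58.1 (lmFit, eBayes) was fitted to the 4 group means over all 8 samples, with 4 residual and 3.25 prior degrees of freedom and a prior SD of 0.0902. Adjusted p-values are Benjamini-Hochberg values over all 11009 genes. The script was tested on simulated data.

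The comparison and the 52 gene lists were chosen with earlier results of these data known. The text names the 15 highest and 15 lowest called genes, 10 called genes of smallest p with a change of at least 0.5, up to 4 called genes in each direction of a list (or the 2 of smallest p), and Sting. Splits of lists made after seeing values are marked as such. Alternatives were quantile normalization, robust empirical Bayes, the replicate number as a block, the 4 scrambled-dsRNA samples alone, each probe set on its own, and leaving out each sample. Across genes, replicate differences correlated at 0.0553 between the c-di-GMP and mock groups with scrambled dsRNA, at 0.29 between the 2 c-di-GMP groups, at 0.114 between the 2 mock groups, and at 0.0093 to 0.0573 between the other pairs of groups. Not every pair exceeded 0.1, so the replicate numbers were not taken as pairs.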

Additional observations from a re-analysis of the deposited data

Results flagged for a closer look

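Probe sets outside the tests of genes also held signal. Of 3888 probe sets with no gene name, 63 were called higher and 63 lower after c-di-GMP in cells given scrambled dsRNA (3.24% in all). Of 367 probe sets that name several genes, 17 were called higher and 18 lower (9.54%), with changes between -1.67 (adjusted p = 0.0159) and 1.2 (adjusted p = 0.00229).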

How the results depend on the processing

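The main model called 1329 genes, 456 higher and 873 lower. Quantile normalization called 393 higher and 511 lower and kept 884 of the calls, and the 4 scrambled-dsRNA samples alone called 141 (62 higher, 79 lower), 130 of them shared; fewer residual degrees of freedom go with the second. Robust empirical Bayes gave 437 and 840, and each probe set on its own 444 and 845. Leaving out each sample gave from 221 to 1385 genes in all, 85 to 426 higher and 136 to 997 lower; where a group was left with 1 sample, it is assumed to vary like the others. The replicate number as a block gave 481 higher and 904 lower. Genes called for a difference between the dsRNA arms numbered 0 in the main model and from 0 to 12 without 1 sample, the highest without DmSTING c-di-GMP replicate 2. Of 171 named genes 149 were called, and 31 of these kept their call under all 13 alternatives. Ent3 and Lsp2, which were not called, ranged from -0.58 to 0.031 and from -0.24 to 0.075 over the fits without 1 sample, and were above 0 without scrambled c-di-GMP replicate 1; the cause was not tested.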
